A study of Mus musculus with 20 samples.

Results

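The upstream regulatory DNA of Pou5f1, the gene that encodes OCT4, was examined in ATAC-seq peak lists from a reprogramming time course. Its members were taken by position and not by any measured value. All peaks in a 20 kb stretch of mouse chromosome 17 (mm10, chr17:35495000-35515000) were collected from the 20 libraries, and 80 of 1582423 peaks lay there. The annotated Pou5f1 gene runs from 35506018 to 35510772 on the plus strand. Of the 80 peaks, 27 had their summit upstream of the gene, 38 inside it and 15 beyond its end. The 27 upstream summits were all intergenic and are the subject here. Summits inside the gene were kept apart, since the retroviral Oct4 vector and the reporter hold Oct4 sequence whose reads align to the same places.

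ATAC-seq tags accessible DNA with the Tn5 transposase. The study followed mouse embryonic fibroblasts (MEFs) that received Oct4 together with native Nanog (Nanog+Oct4) or with NanogN70 (NanogN70+Oct4), in which the BRG1-binding end of SS18, a subunit of the BAF remodelling complex, is fused to NANOG. Both paths had 1 library on each of 8 days, from day 0 to day 12, beside 1 library of untransduced MEFs and 3 of embryonic stem cells (ESCs). MEFs came from mid-gestation embryos of OG2 males crossed with wild-type females and ESCs from OG2 mice, so every group carried the Oct4-GFP transgene of the OG2 strain. Factors were delivered by retrovirus to bulk cultures, day 0 was set after the infections, and the iCD3 induction medium was replaced by N2B27 with inhibitors and LIF after day 7. The ESC samples are named as ESCs only in their titles, while their other fields name fibroblasts.

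OCT4 is needed to form and keep the pluripotent cells of the early embryo. As background, its gene is controlled by a promoter and by a proximal and a distal enhancer upstream. The distal enhancer is the one used in naive pluripotent cells, ESCs and germ cells, and the proximal enhancer is the one used in the later, primed epiblast. In fibroblasts the gene is silent. The OG2 transgene contains Oct4 upstream sequence from which the proximal enhancer was deleted. Reads from transgene copies therefore align to the same mm10 positions, the copy number in each group is not given in the sources used here, and extra copies cannot be told apart from more accessible DNA.

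The upstream part was divided by distance from the annotated start into a promoter bin (up to 500 bp), a proximal enhancer bin (above 500 and up to 1600 bp), a distal enhancer bin (above 1600 and up to 2600 bp) and a far upstream bin (above 2600 and up to 11018 bp). Of the 27 summits, 10 lay in the distal enhancer bin and 17 far upstream, and none of the 20 libraries had a summit in the promoter or proximal enhancer bins. Peaks were called in each library separately and each has 1 summit, so a broad peak can hide a lower crest.

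The sequence under the highest ESC summits is shown because the results turn on it. It spans chr17:35503842-35504141 of GRCm38 (the assembly called mm10 at UCSC), plus strand, from 2176 to 1877 bp upstream of the start. Capitals mark ACAAGG, a match to the SOX motif ACAANG, and TGCATAACAAAG, a run that was picked out after the sequence was seen and that ends in a further SOX match.
Distal enhancer: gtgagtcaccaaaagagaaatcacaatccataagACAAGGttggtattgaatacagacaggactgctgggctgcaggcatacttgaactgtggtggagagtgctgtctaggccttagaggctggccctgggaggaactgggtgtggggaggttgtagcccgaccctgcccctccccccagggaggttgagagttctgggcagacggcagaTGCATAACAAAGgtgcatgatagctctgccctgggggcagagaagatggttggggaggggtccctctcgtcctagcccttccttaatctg

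Motifs were searched on both strands. The 2 SOX matches lay 2142 and 1960 bp upstream, and 53.5% of 53052 windows of this length at ESC summits held at least 1 such match. The run TGCATAACAAAG began 1966 bp upstream, and 22 of those windows, or 0.0415%, held it. It was cut from this window and is longer than the motifs searched, so its share cannot be set beside theirs. One match to the AP-1 motif TGANTCA stood 2175 bp upstream, at the edge of the window, and was present in 8.70% of windows. The octamer ATGCAAAT (3.45% of windows), its shortened form ATGCAA (14.8%), the nuclear receptor site AGGTCA (21.6%), the CACCC box CCACCC (30.1%), the GC box GGGCGG (13.7%), the homeobox letters TAATGG (10.8%) and the TEAD letters GGAATG (18.6%) were not found in this window. Its GC content was 56% against a median of 49.7%, with 3 CpG sites against a median of 4.

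The promoter is shown for contrast, since no library had a summit in it. The 250 bases before the start (chr17:35505768-35506017, plus strand) carry in capitals 3 CCACCC matches, of which 2 overlap, 1 GGGCGG and 1 AGGTCA.
Promoter: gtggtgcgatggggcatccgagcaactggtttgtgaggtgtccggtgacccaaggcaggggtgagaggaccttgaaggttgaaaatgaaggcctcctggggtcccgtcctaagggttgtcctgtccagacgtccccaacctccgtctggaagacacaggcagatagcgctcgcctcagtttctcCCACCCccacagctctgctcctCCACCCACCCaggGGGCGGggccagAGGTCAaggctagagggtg

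Of 21911 promoters of this length, 28.8% held CCACCC, 39.0% GGGCGG and 12.8% AGGTCA. The GGGCGG match lay 31 bp and the AGGTCA match 19 bp before the start. These are letter matches in the reference sequence and not measured binding.

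Depth is not known for these libraries. Each pileup, the number of tags that cover a summit, was therefore divided by the median pileup of the same library over 14217 common regions, those where every library had a peak, and the ratio is called the relative pileup. These medians ran from 16 to 60 tags and the numbers of peaks from 44126 to 125467. The NanogN70 day 3 library stood apart from the other time course libraries, with the highest median and with 23.3% of its regions in no other library, and it had no summit in the distal enhancer bin. ESC replicate 2 stood apart at this locus. It had no peak anywhere upstream of or inside Pou5f1, although 37 of 38 regions with pileups of at least 100 in both other ESC libraries had a peak in it, so ESC values are given with and without it. The lists do not show whether the DNA was closed in this library or a peak was not listed, and values that set it to 0 carry that limit.

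**Figure D1:**
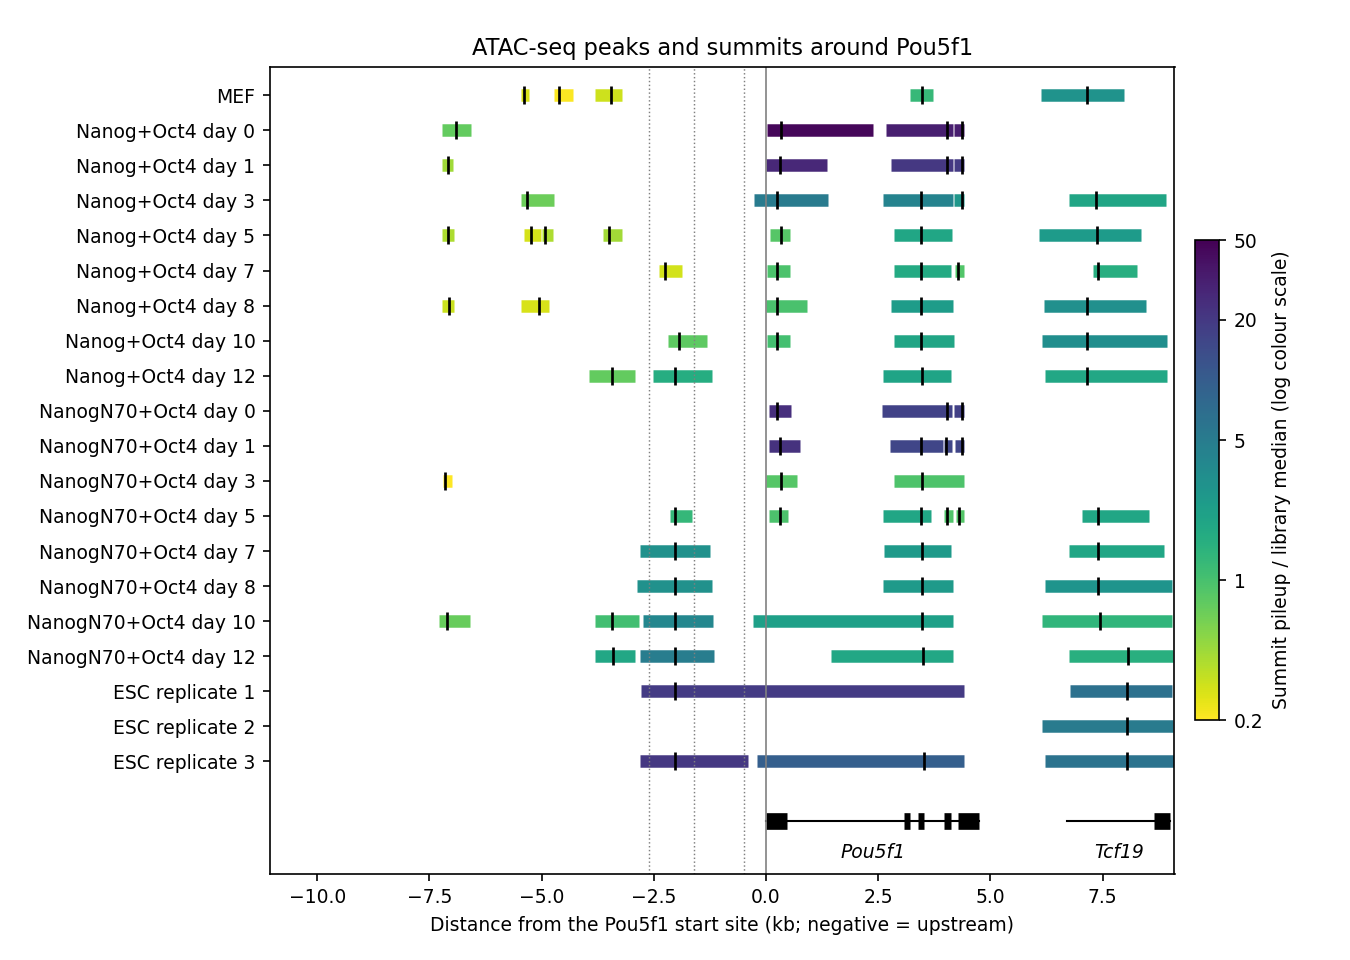
Peaks (bars) and summits (black ticks) of the 20 libraries by distance from the Pou5f1 start in kb, coloured by relative pileup on a log scale. Dotted lines mark the borders of the promoter, proximal enhancer and distal enhancer bins, and exons of Pou5f1 and Tcf19 are drawn as boxes at the bottom. A column of summits near 2 kb upstream is present in 2 ESC libraries, in NanogN70+Oct4 from day 5 and in 3 libraries of Nanog+Oct4.

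The distal enhancer bin had a tall summit in 2 of the 3 ESC libraries and none in MEFs. The pileup was 612 tags in ESC replicate 1 and 591 tags in ESC replicate 3, at summits 2026 and 2027 bp upstream, and ESC replicate 2 had no summit. Both summits were the second highest of their libraries, of 108671 and 97450 peaks. As relative pileup, ESC replicate 1 gave 19.1 and ESC replicate 3 gave 20.4. The mean was 19.8 ± 0.887 (SD, n = 2) over the libraries with a summit and 13.2 ± 11.4 (SD, n = 3) with the remaining library set to 0. With 1 MEF library the difference between ESCs and MEFs has no test.

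In NanogN70+Oct4 cells, no summit was present in this bin on days 0, 1 and 3. The pileup was 29 tags on day 5, 120 on day 7, 82 on day 8, 108 on day 10 and 201 on day 12. The corresponding relative pileups were 1.26, 3.16, 3.15, 3.86 and 4.90. By rank, the summit stood at 5428 of 83245 peaks on day 5, at 165 of 80881 on day 7, at 139 of 55339 on day 8, at 54 of 44126 on day 10 and at 12 of 54272 on day 12. It was thus among the tallest peaks of the last library. The peak scores, which are p-values on a log scale and grow with depth as well as with height, were 259, 934, 619, 772 and 1820 on these days, against 240 for the broad peak of ESC replicate 1 and 3100 for that of ESC replicate 3.

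In Nanog+Oct4 cells, days 0, 1, 3, 5 and 8 had no summit in the bin. The pileup was 11 tags on day 7, 18 on day 10 and 39 on day 12, or 0.289, 0.783 and 1.63 as relative pileup. Their peak scores were 62.2, 52.3 and 202, of which the first and second are close to the lowest score listed, 50. These summits ranked 31763 of 84526, 10116 of 50716 and 3552 of 48843 peaks. All 3 were lower than the NanogN70+Oct4 summit of the same day. On day 7 the libraries of both paths had the same median of 38 tags at the common regions, against pileups of 120 and 11 tags at the enhancer.

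**Figure D2:**
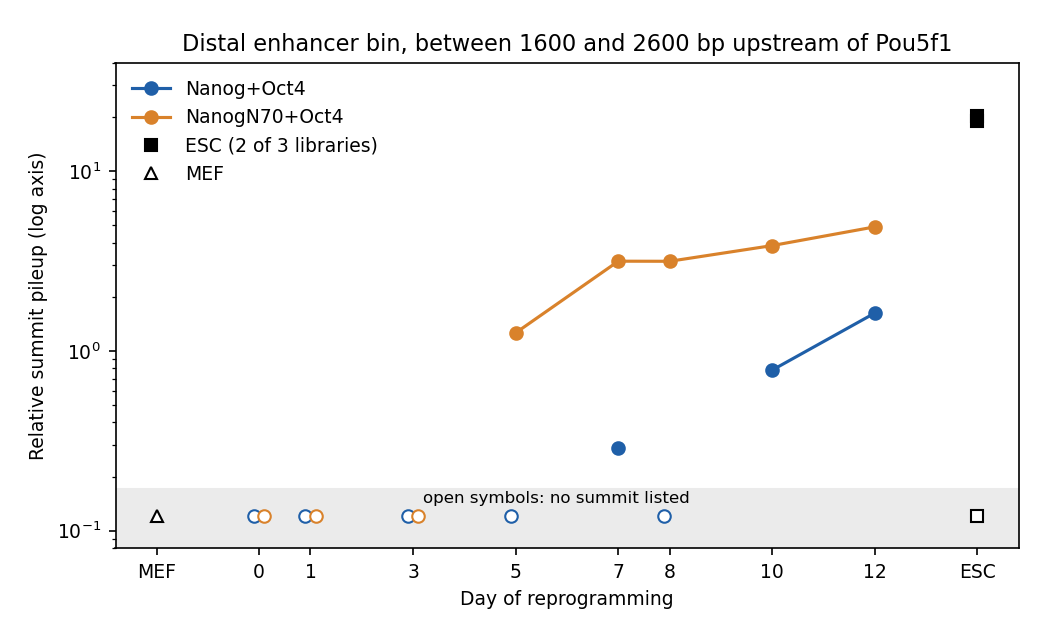
Relative pileup of the highest summit in the distal enhancer bin (log axis) by day for both paths, with MEFs at the left and ESCs at the right. Open symbols in the grey band mark libraries with no summit. NanogN70+Oct4 runs from 1.26 on day 5 to 4.90 on day 12, above Nanog+Oct4 on each of these days and below the 2 ESC values.

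Across the 8 days the mean relative pileup was 2.04 in NanogN70+Oct4 and 0.337 in Nanog+Oct4. The mean daily difference was 1.70 ± 1.55 (SD over 8 days), with NanogN70+Oct4 higher on 5 days, lower on 0 and equal, with no summit in either, on 3. A two-sided exact permutation test that flipped the signs of the daily differences gave p = 0.0625, which is the smallest that 5 unequal days allow, and 0.3125 after Benjamini-Hochberg adjustment over the 5 tests of this family. The difference did not pass the threshold. Without day 3 it was 1.95 (exact permutation test, p = 0.0625). Days are successive samples of 1 time course for each path and not biological replicates, so the test covers only these libraries.

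To set the enhancer beside the rest of the genome, 53075 windows were formed that had summits within 500 bp in at least 2 ESC libraries and none in MEFs. A summit on at least 5 of 8 days, as at the enhancer in NanogN70+Oct4, was seen in 5.74% of windows in that path and 3.17% in Nanog+Oct4. A summit on at least 3 days, as at the enhancer in Nanog+Oct4, was seen in 7.55% of windows in that path. Windows with a summit on each of days 5, 7, 8, 10 and 12 made up 2.93% in NanogN70+Oct4 and 1.34% in Nanog+Oct4. On day 5 alone, 11.6% of windows had a summit in NanogN70+Oct4 and 8.97% in Nanog+Oct4, and on day 12 the shares were 15.5% and 6.95%. At least 2 more days with a summit in NanogN70+Oct4 were counted in 11.6% of windows, and at least 2 more in Nanog+Oct4 in 2.49%. The lack of a summit on days 0, 1 and 3 in both paths was common, at 81.5% of windows.

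The pattern of the daily differences was rarer. A relative pileup higher in NanogN70+Oct4 on at least 5 days and lower on none was found in 1.94% of windows, against 0.226% for the opposite direction. A p of at most 0.0625 with the higher mean in NanogN70+Oct4 was found in 2.47%, and with the higher mean in Nanog+Oct4 in 0.396%. The mean difference of 1.70 at the enhancer was above that of 99.996% of windows, whose median was 0. Its ESC relative pileup of 19.8 was the highest of all 53075 windows, whose median was 0.297. With libraries without a summit set to 0 it was 13.2, again the highest, against a median of 0.278. Transgene copies cannot be told apart from accessibility in these values.

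Relative to ESCs, the pileup at the enhancer remained low in both paths on the last day. The transgene copy number of each group is not known, so the shares below cannot be read as accessibility alone. On day 12 it stood at 24.8% of the mean of the 2 ESC libraries in NanogN70+Oct4 and at 8.23% in Nanog+Oct4. With ESC replicate 2 counted as 0, the shares of the mean of all 3 libraries were 37.2% and 12.3%. In NanogN70+Oct4 the earlier shares of the mean of 2 libraries were 6.38% on day 5, 15.99% on day 7, 15.97% on day 8 and 19.5% on day 10. In Nanog+Oct4 they were 1.47% on day 7 and 3.96% on day 10. Among windows with a summit on day 12 the median share of the ESC level was 51.1% in NanogN70+Oct4, where 15.9% of those windows lay below Pou5f1. In Nanog+Oct4 the median was 83.4% and 0% of windows lay below Pou5f1. A window with a low ESC level must reach a large share of it to be listed as a peak at all, so these medians are a description only.

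**Figure D3:**
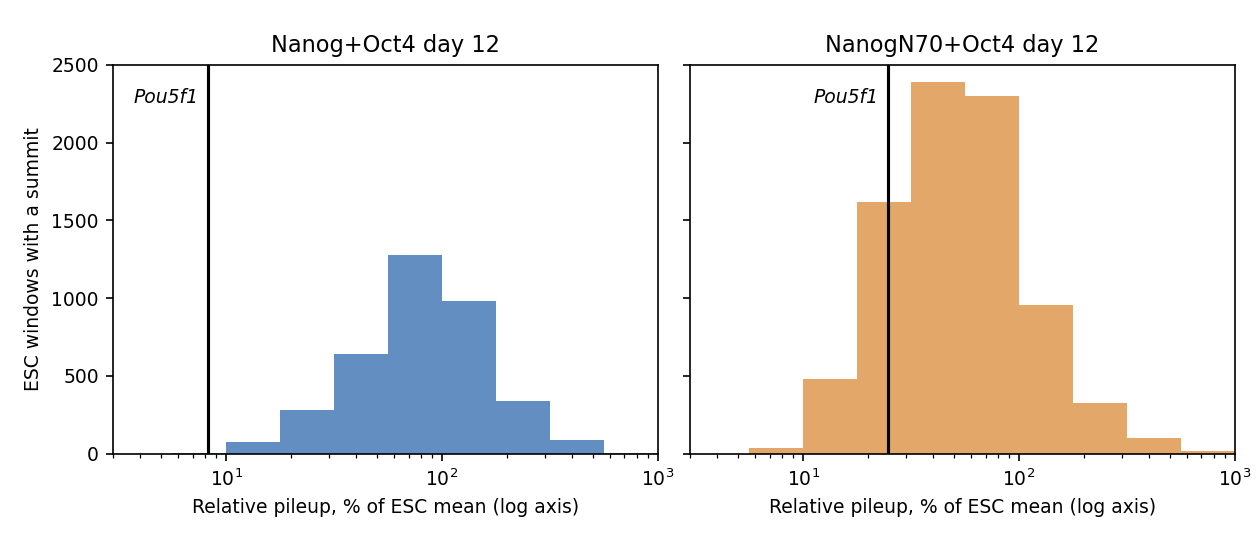
Number of ESC windows with a summit on day 12 by their relative pileup as a percentage of the ESC mean (log axis), for Nanog+Oct4 and NanogN70+Oct4. The vertical line marks the Pou5f1 distal enhancer, at 8.23% and 24.8%, below the medians of 83.4% and 51.1%.

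The summits were also compared by place. In NanogN70+Oct4 it lay 2025, 2025, 2027, 2025 and 2025 bp upstream on days 5, 7, 8, 10 and 12, 1 bp from the middle of the ESC summits when that middle is taken as the whole base 2026 bp upstream. Of the windows with a summit in these libraries, 4.46% to 5.45% were as close. In Nanog+Oct4 it lay 2245 bp upstream on day 7, 1937 bp on day 10 and 2032 bp on day 12, which is 219, 89 and 6 bp away. Of the windows with a summit in those libraries, 82.6%, 57.9% and 14.6% were as close, and their median distances were 43, 66 and 52 bp. A summit of few tags is placed with less precision than a tall one, and the difference in place was not tested.

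No library had a summit in the proximal enhancer bin, so its relative pileup was 0 in all 20 libraries and the permutation test had nothing to compare (p = 1). When any overlapping peak was counted, the mean daily difference there was 1.58 (exact permutation test, p = 0.125), which comes from the peaks of the distal enhancer. Broad peaks with their summit at the distal enhancer ran into it. In ESC replicates 1 and 3 these peaks covered 100% of the 1100 bp of the bin, in a peak from 2784 bp upstream to 4414 bp downstream of the start in replicate 1 and in a peak from 2800 to 405 bp upstream in replicate 3. In NanogN70+Oct4 they covered 0% on day 5, 32.1% on day 7, 36.1% on day 8, 37.7% on day 10 and 40.5% on day 12. The Nanog+Oct4 peaks covered 0% on day 7, 25.1% on day 10 and 35.4% on day 12. The covered share was thus below that of ESC replicates 1 and 3 in every time course library. ESC replicate 2 and MEFs had no peak there. Widths were not adjusted for the height of the summit, and whether the proximal enhancer had a crest of its own cannot be read from these lists. The OG2 transgene lacks the proximal enhancer, so its copies add no reads over the deleted stretch but can add them over other upstream sequence. The proximal and distal bins are therefore not compared on equal terms.

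The promoter bin was likewise without a summit in any library (exact permutation test, p = 1). It was overlapped by peaks in ESC replicates 1 and 3, and by gene body peaks whose upstream end reached 278 bp before the start in Nanog+Oct4 on day 3, 5 bp on day 8, and 280 bp in NanogN70+Oct4 on day 10. MEFs had no peak over it.

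Far upstream, 17 summits of 7 to 77 tags fell into 3 clusters when summits within 500 bp were joined. The most distant cluster, 7158 to 6907 bp upstream, held 6 summits of 7 to 20 tags. These were in Nanog+Oct4 on day 0 (12 tags), day 1 (7), day 5 (11) and day 8 (10) and in NanogN70+Oct4 on day 3 (12) and day 10 (20). The next, 5392 to 4612 bp upstream, held 6 summits of 8 to 16 tags in 4 libraries. MEFs had 2 of them (11 and 8 tags), and Nanog+Oct4 had 1 on day 3 (16), 2 on day 5 (8 and 11) and 1 on day 8 (9), with none in NanogN70+Oct4 or ESCs.

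The nearest of the 3 clusters, 3508 to 3405 bp upstream, held the tallest far upstream summits, in NanogN70+Oct4 on days 10 and 12. Its pileup was 12 tags in MEFs, 12 in Nanog+Oct4 on day 5 and 18 on day 12, and 30 in NanogN70+Oct4 on day 10 and 77 on day 12. As relative pileup these were 0.308, 0.429, 0.75, 1.07 and 1.88. The highest value was therefore in NanogN70+Oct4 on day 12. In NanogN70+Oct4 on days 10 and 12 the peaks of this cluster ended 2830 and 2917 bp upstream. The distal enhancer peaks of the same libraries began close by, 2733 and 2797 bp upstream. Whether the cluster is separate from the distal enhancer peak was not tested. The ESC libraries had no summit of their own here, and the ESC peaks over the distal enhancer ended 2784 and 2800 bp upstream, short of the cluster. The sequence around its highest summit (chr17:35502538-35502687, plus strand) is shown with the SOX match ACAAGG, 3370 bp upstream, in capitals.
Upstream cluster: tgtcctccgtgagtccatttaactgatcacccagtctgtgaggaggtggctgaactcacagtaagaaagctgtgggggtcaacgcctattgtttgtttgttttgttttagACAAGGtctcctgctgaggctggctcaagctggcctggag

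A SOX match was present in 28.6% of windows of this length at summits of the NanogN70+Oct4 day 12 library. None of the other factor motifs searched was found in it, and it held 2 CpG sites. In the reference, 26.7% of these bases are marked as repeats, against 16% in the same length around the summits 2025 to 2027 bp upstream.

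For the far upstream bin as a whole, Nanog+Oct4 had a summit on 6 of 8 days (0, 1, 3, 5, 8 and 12) and NanogN70+Oct4 on 3 (3, 10 and 12). In the same bin of 21911 protein-coding genes, 17.8% had a summit on at least 6 days in Nanog+Oct4 and 28.6% on at least 3 days in NanogN70+Oct4. At least 3 more days in Nanog+Oct4 were counted for 2.44% and at least 3 more in NanogN70+Oct4 for 4.38%. The order of the paths turned over at Pou5f1 when the score had to be at least 100, with 0 days in Nanog+Oct4 and 1 in NanogN70+Oct4, and with equal numbers of peaks per library, with 1 and 2 days. The mean relative pileup was 0.422 in Nanog+Oct4 and 0.394 in NanogN70+Oct4, a mean daily difference of -0.0281 ± 0.727 (SD over 8 days), with NanogN70+Oct4 higher on 2 days and lower on 5 (exact permutation test, p = 0.906, adjusted 1). The direction of this difference was not stable. It turned to 0.235 when the peak score had to be at least 100. The number of upstream summits per library, over all bins, was 1.125 in NanogN70+Oct4 and 1.625 in Nanog+Oct4, and this difference of -0.5 ± 1.41 did not pass the exact permutation test either (p = 0.5, adjusted 1). It turned to 0.625 at a score of at least 100 (exact permutation test, p = 0.0625).

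The summits inside Pou5f1 are given apart, as they cannot be assigned to the endogenous gene. In exon 1 the pileup in Nanog+Oct4 was 730 tags on day 0, 435 on day 1, 119 on day 3, 24 on day 5, 36 on day 7, 31 on day 8 and 24 on day 10. It had no summit there on day 12. In NanogN70+Oct4 it was 576, 365, 52 and 22 tags on days 0, 1, 3 and 5, with none from day 7 on. MEFs and ESCs had no summit in exon 1. Broad peaks of ESC replicates 1 and 3 and of NanogN70+Oct4 on day 10 covered this exon with their summit elsewhere. Exon 1 summits were tallest on days 0 and 1, when neither path had a summit at the distal enhancer. They were low on days 5 and 8 in Nanog+Oct4, which also had none there. In exon 3, MEFs had 48 tags, Nanog+Oct4 45 to 98 in 6 libraries and NanogN70+Oct4 44 to 255 in 7. The tallest summit of ESC replicate 3 in the gene lay in an intron 3529 bp past the start, with 281 tags.

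**Figure D4:**
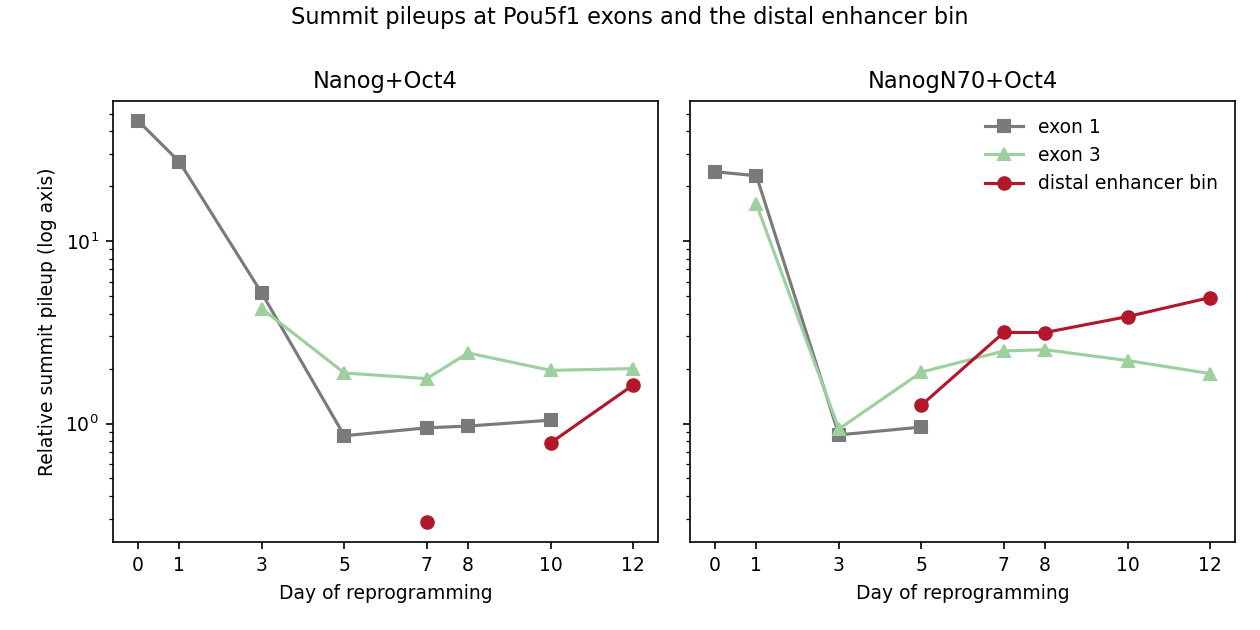
Relative pileup (log axis) of the highest summit in exon 1, in exon 3 and in the distal enhancer bin by day for both paths, with no point where there was no summit. Exon 1 runs from 45.6 on day 0 to 1.04 on day 10 in Nanog+Oct4 and from 24.0 on day 0 to 0.957 on day 5 in NanogN70+Oct4, while the distal enhancer points begin on day 7 and day 5.

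Beyond the gene, all 15 downstream summits lay in Tcf19, which encodes a nuclear protein linked to cell proliferation and is transcribed from the other strand. The ESC summits were 8041, 8036 and 8036 bp past the Pou5f1 start, in an intron, with 210, 194 and 176 tags. As relative pileup these were 6.56, 5.11 and 6.07, so ESC replicate 2 had a summit there that was the lowest of the 3 on this scale. The MEF summit was at 7158 bp in exon 4 of a Tcf19 transcript, with 115 tags. On day 12 the NanogN70+Oct4 summit lay at 8054 bp (63 tags), near the ESC position, and the Nanog+Oct4 summit at 7159 bp (45 tags), near the MEF position. On the other days with a summit both paths had it between 7152 and 7435 bp. Gm19553, an antisense transcript, overlaps the end of Pou5f1, where summits in exon 5 cannot be assigned to either gene.

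Pou5f1 was also set among other pluripotency genes by the summits in the 5 kb upstream of each start. By this measure Pou5f1 had a summit on 5 days in NanogN70+Oct4 and on 4 in Nanog+Oct4, which includes far upstream summits. Of 25 core pluripotency genes other than Pou5f1, 7 had a summit on more days in NanogN70+Oct4 (28%, against 23.7% of 21911 protein-coding genes), 4 on more days in Nanog+Oct4 (16%, against 17.3%) and 14 on equal numbers of days (56%, against 58.9%). The mean relative pileup was higher in NanogN70+Oct4 for 14 of them (56%, against 38.5% of all genes) and in Nanog+Oct4 for 3 (12%, against 29.5%). The median difference was 0.0197 over the list and 0 over all genes. At least 2 ESC libraries had a summit upstream of 17 of the 25 (68%, against 51.9% of all genes), and MEFs of 6 (24%, against 49.2%).

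Tdgf1, a NODAL co-receptor, had a summit on 5 days in NanogN70+Oct4 and on 0 in Nanog+Oct4, and Lin28a, which blocks let-7 maturation, on 4 and 0. Sox2, the partner of OCT4, and the Krüppel-like factors Klf2, Klf4 and Klf5 had summits on all 8 days in both paths and also in MEFs. Tfcp2l1, a factor of naive ESCs, had them on all 8 days in both paths but not in MEFs. Dppa3, a maternal and germ cell factor, had a summit on 4 days in NanogN70+Oct4 and 6 in Nanog+Oct4, and Tbx3 on 3 and 4. Upstream of Sall4, Nr5a2, Gdf3 and Dnmt3l no library had a summit.

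**Figure D5:**
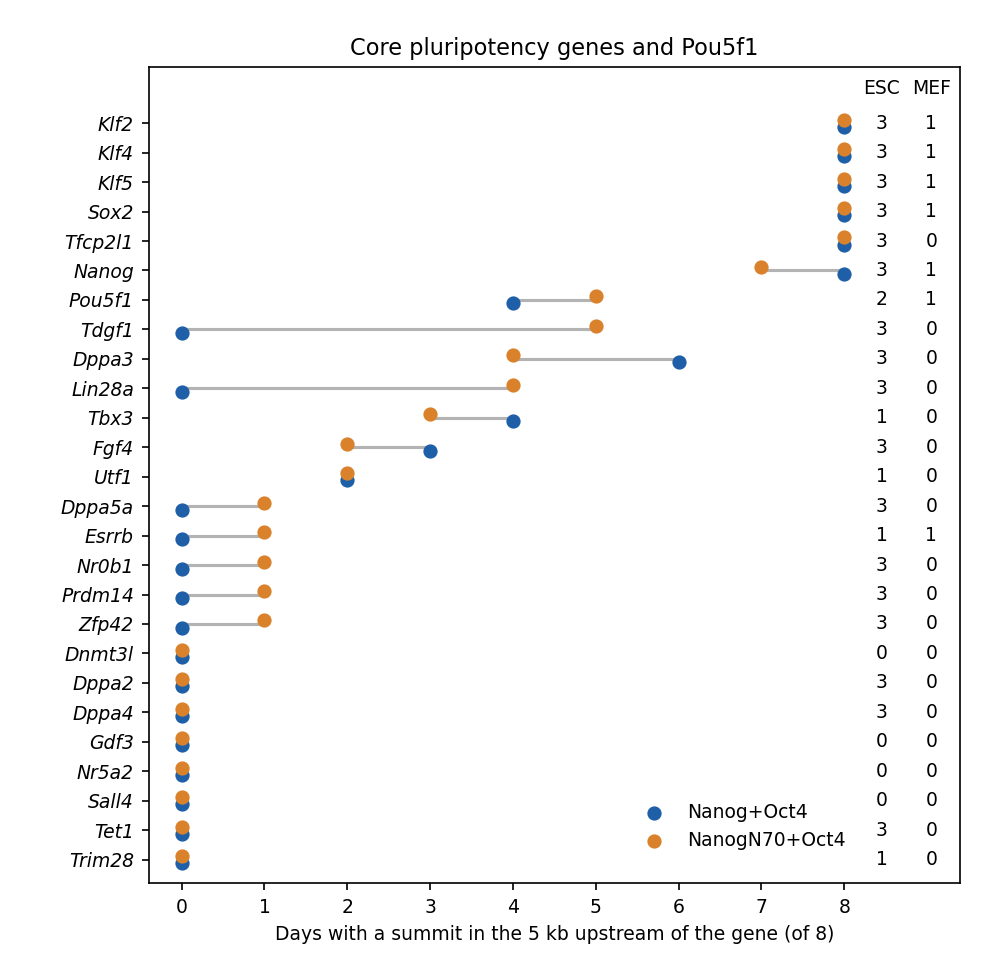
Days of 8 with a summit in the 5 kb upstream of Pou5f1 and of 25 core pluripotency genes, in Nanog+Oct4 (blue) and NanogN70+Oct4 (orange), with the number of ESC and MEF libraries that had one at the right. Pou5f1 stands at 4 and 5 days, next to Tdgf1 at 0 and 5.

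A list of 14 fibroblast genes was used to check the labels. MEFs had a summit upstream of 11 of them (78.6%, against 49.2% of all genes) and at least 2 ESC libraries upstream of 8 (57.1%, against 51.9%). Col1a1, Col1a2, Col3a1 and Postn, which encode matrix proteins, had a summit in MEFs and in no ESC library. Other members did not separate the cells in this way. Fbln1 and Lum had a summit in 2 ESC libraries and none in MEFs, Prrx1 had none in either, and Col6a1, Pdgfra, Pdgfrb, Snai2 and Thy1 had one in MEFs and in all 3 ESC libraries. Of the list, 4 genes had more days with a summit in NanogN70+Oct4 (28.6%, against 23.7% of all genes) and 7 in Nanog+Oct4 (50%, against 17.3%).

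The genes whose upstream pileup most resembled that of Pou5f1 over the 20 libraries, by Pearson correlation of log2 (relative pileup + 0.1) among 16203 genes with a value that varied, were Cacng4 (r = 0.813), Igdcc3 (0.794), Cerkl and Neurod1 (both 0.792) and Cnksr2 (0.789). Cerkl and Neurod1 had the same values in all 20 libraries. The Cacng4 summit, for example, had 23, 25 and 24 tags in the ESCs, 28 in NanogN70+Oct4 on day 12, 11 in Nanog+Oct4 on day 12 and 6 in MEFs. Sox2 had the highest r of the core list, at 0.627. The libraries are not independent samples of one kind, and many of the values are 0, so the correlations are a description of shared presence of summits.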

How the data were processed

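ATAC-seq libraries of 1 MEF, 3 ESC and 16 time course samples were used. The authors trimmed reads with Trim Galore 0.6.4, aligned them to mm10 with Bowtie2 2.4.5, removed repetitive, mitochondrial and low-quality reads (mapping quality under 30) with SAMtools 1.16.1 and called peaks in each library with MACS 1.4.2 without a shift model, keeping duplicates. No control library is named. The deposited score is MACS's p-value on a log10 scale, multiplied by -10, and was at least 50 for each peak. The deposited signal of a summit is its pileup in tags, not scaled to depth, and depth is unknown, so the number of reads limits what is listed: a site with no peak may be open below the threshold. Duplicates can raise pileups.

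A relative pileup is the highest summit pileup in a bin, divided by the library's median over the common regions (peaks joined at 1 bp overlap), and 0 with no summit. The paths were compared by day with the two-sided exact permutation test over 256 sign flips, tested on simulated data, in Python 3.11.15 with NumPy 2.4.6 and pandas 2.3.3. Samples were grouped by title. Named genes were Pou5f1, genes in the window, the core and fibroblast lists, and the 5 genes with the most similar profile. 1 gene of the core list is not reported here. Members and lists were chosen with earlier results of these data known. Genes come from GENCODE M21 and sequences from RefSeq's GRCm38, and peaks on all 21 chromosomes compared lay inside its lengths. Alternatives changed the score minimum, the bin rule, the scale, the value given to missing summits, the number of peaks and the days.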

Additional observations from a re-analysis of the deposited data

Results flagged for a closer look

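Summits inside Pou5f1 lie outside the comparisons of the upstream DNA, and 3 of its exons had tall summits in transduced cells where MEFs had none. In Nanog+Oct4 on day 0 the highest pileup was 730 tags in exon 1, 505 in exon 4 and 516 in exon 5. In NanogN70+Oct4 on day 0 the same exons had 576, 400 and 419 tags. The retroviral Oct4 vector holds these exons, and its reads cannot be told apart from those of the endogenous gene in these lists.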

How the results depend on the processing

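The excess of NanogN70+Oct4 at the distal enhancer kept its direction under every alternative tried. It was 1.84 with a score of at least 100 and with the 44126 top-scoring peaks of each library, 1.65 with the lowest pileup of the library in place of 0, 5.42 on the scale of each library's median over all peaks, 32.9 in percentiles of pileup, and 1.48 to 1.95 without each day in turn (exact permutation test, p = 0.0625 to 0.125). It never passed the threshold. With at most 5 unequal days the smallest p of the permutation test is 0.0625. Only the alternative with the lowest pileup for missing summits could therefore have passed. The far upstream difference turned to 0.235 (exact permutation test, p = 1, as for the p-values that follow) at a score of at least 100, 0.275 (p = 0.5) with equal numbers of peaks, 1.49 (p = 0.125) when overlapping peaks were counted, which adds the edges of distal enhancer peaks, 0.157 (p = 0.828) on the scale of each library's median over all peaks and 0.030 (p = 0.906) with the lowest pileup for missing summits. Without each day in turn it ran from -0.193 to 0.075. The difference in the number of upstream summits turned to 0.625 at a score of at least 100 and to 0.75 (exact permutation test, p = 0.1875) with equal numbers of peaks, and ran from -0.857 to -0.143 without each day. For the other turns the cause was not tested.

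At a score of at least 100, summits were left on 1 day in the distal bin in Nanog+Oct4, and far upstream on 0 days in Nanog+Oct4 and 1 in NanogN70+Oct4. With equal numbers of peaks the Nanog+Oct4 values were 1 day in the distal bin and 1 far upstream. Counting overlapping peaks gave 2 days in Nanog+Oct4 and 4 in NanogN70+Oct4 in the proximal bin and 5 days far upstream in NanogN70+Oct4. The MEF value far upstream was 0 under both stricter rules, 1.2 on the all-peak scale and 55.3 as a percentile of pileup. The ESC mean at the distal enhancer was 38.2 and 66.7 on those scales, and 9.56 to 19.8 without each ESC library. The promoter and proximal differences, 0 in the main comparison, became -0.0312 (exact permutation test, p = 0.09375) with the lowest pileup for missing summits, and the proximal one 1.58 (p = 0.125) with overlapping peaks. As no library had a summit in these bins, the -0.0312 holds only each library's lowest pileup and median. It says nothing about the promoter or the proximal enhancer. No paired analysis by replicate number was possible because each day has 1 library per path; the test already pairs the paths by day. Depth and the listing of peaks limit every absence given here.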
